A study of Mus musculus with 5 samples.

Results

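The 34 cell cycle and DNA replication genes described here were read from RNA sequencing of CD8 T cells of the mouse, which are cytotoxic lymphocytes. They were chosen by name, as a list of genes known to mark dividing cells, with earlier results of these data known. All 34 were found among the 11564 genes of the deposited table. Of these, 16 act around the G1/S boundary, where DNA replication is prepared and begun, 16 act in G2 and mitosis, and Hmgb2 and Stmn1 were kept apart. Sorted cells gave 3 libraries that the labels call PHD2-deltaT and describe as a knockout of PHD2, and 2 wild-type (WT) libraries. PHD2, the product of Egln1, is the oxygen-dependent enzyme that marks HIF transcription factors for destruction. Strain, age, the driver of the deletion, any treatment of the cells and the number of animals behind the libraries were not stated. The p-values therefore measure only the spread between these libraries, which may be technical.

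A dividing cell first licenses its DNA by loading the MCM helicase at replication origins, then copies the DNA in S phase, and then builds a spindle and separates the chromosomes in mitosis. Genes of the first phase are switched on by E2F factors. Those of the last phase are switched on later, by complexes that bind CCAAT boxes and the cell cycle homology region, CHR. Resting CD8 T cells express few of these genes, and activated CD8 T cells divide rapidly.

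Promoter sequences of 5 of the genes are shown because they hold the letters by which the G1/S and G2/M genes are known to differ. They are the 250 bases before the RefSeq start on GRCm38.p6 (mm10), 5′ to 3′ on the gene's own strand. Capitals mark matches on either strand to the E2F letters TTTCGCGC or TTTGGCGC, to the CHR letters TTTGAA or TTCGAA, and to CCAAT. Mcm6 (chr1:128359706-128359955, minus strand) and Mcm5 (chr8:75109259-75109508, plus strand) are helicase subunits. Ccnb2 (chr9:70421555-70421804, minus strand), Mki67 (chr7:135716380-135716629, minus strand) and Cdk1 (chr10:69352913-69353162, minus strand) act in G2 and mitosis.
Mcm6: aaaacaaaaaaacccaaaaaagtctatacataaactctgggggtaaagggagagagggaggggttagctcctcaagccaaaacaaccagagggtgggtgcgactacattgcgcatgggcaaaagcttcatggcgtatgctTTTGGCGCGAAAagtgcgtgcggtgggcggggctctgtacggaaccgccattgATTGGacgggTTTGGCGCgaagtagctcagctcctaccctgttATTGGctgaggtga
Mcm5: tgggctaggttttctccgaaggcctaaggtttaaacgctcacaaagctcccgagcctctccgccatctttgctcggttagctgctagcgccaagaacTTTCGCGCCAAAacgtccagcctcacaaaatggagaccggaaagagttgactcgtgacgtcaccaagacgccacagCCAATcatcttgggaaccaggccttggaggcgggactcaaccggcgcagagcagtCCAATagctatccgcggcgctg
Ccnb2: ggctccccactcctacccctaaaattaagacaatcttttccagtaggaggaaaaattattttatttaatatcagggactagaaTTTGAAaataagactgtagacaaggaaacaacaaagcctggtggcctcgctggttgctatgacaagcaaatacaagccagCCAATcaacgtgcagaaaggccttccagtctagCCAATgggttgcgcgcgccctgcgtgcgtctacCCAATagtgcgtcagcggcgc
Mki67: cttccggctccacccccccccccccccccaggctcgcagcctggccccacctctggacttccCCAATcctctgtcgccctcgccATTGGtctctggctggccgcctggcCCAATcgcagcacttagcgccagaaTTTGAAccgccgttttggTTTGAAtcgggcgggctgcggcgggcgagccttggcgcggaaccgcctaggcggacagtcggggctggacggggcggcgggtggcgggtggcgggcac
Cdk1: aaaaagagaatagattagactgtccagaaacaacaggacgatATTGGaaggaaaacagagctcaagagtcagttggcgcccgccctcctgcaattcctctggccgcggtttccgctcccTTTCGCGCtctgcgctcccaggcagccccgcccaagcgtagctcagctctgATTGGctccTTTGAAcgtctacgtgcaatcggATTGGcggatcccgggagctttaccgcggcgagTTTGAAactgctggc

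Mcm6 held 3 E2F matches and Mcm5 held 2, of which a pair in each gene overlaps on opposite strands, whereas Ccnb2 and Mki67 held none. Mki67 and Cdk1 each held 2 CHR matches and 3 CCAAT matches, and Ccnb2 held 1 CHR and 3 CCAAT matches. Mcm6 and Mcm5 each held 2 CCAAT matches and 0 CHR matches. Cdk1 also held 1 E2F match. RefSeq windows of 300 bases (250 before and 50 after the start) were found for 27 of the 34 genes. Mcm4, Gins2, Ccne2, Ccna2, Aurkb, Tpx2 and Stmn1 had no entry. The E2F letters stood in the windows of 5 of 13 G1/S genes and 1 of 13 G2/M genes, against 1.99% of the 8475 tested genes with a window. The CHR letters stood in 10 of 13 G2/M genes and 3 of 13 G1/S genes, against 16% of tested genes. CCAAT was held by 12 of 13 G2/M genes and 10 of 13 G1/S genes, against 43.1%. The letters ACGTG or GCGTG, the core of the element that HIF binds, stood in 10 of 13 G2/M and 8 of 13 G1/S genes, and in 69.2% of tested genes. These are matches of letters, not measured binding sites.

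The values are the authors' normalized counts, which summed to 19593220 to 20253007 a library and stand for an inferred depth of 10818543 to 15382060 reads (12925633 to 15382060 in PHD2-deltaT, 10818543 and 14710008 in WT). Egln1, the targeted gene, went against the label, being higher where PHD2-deltaT was labelled. It had 5447, 4327 and 4993 normalized counts there, against 1927 and 2182 in WT (log2 fold change 1.26, limma adjusted p = 2.86e-07). Counts over a whole gene cannot separate deleted from kept exons, so this does not check the deletion, and directions are those of libraries by their label. The labelled cell type was matched by its markers: Cd8a had 16933, 17936 and 15829 normalized counts in PHD2-deltaT, against 17489 and 16444 in WT. Cd4, Cd79a, Ms4a1, Lyz2 and Ncr1 were not analysed here.

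The G1/S genes were nearly equal in both genotypes and ranged widely in level, with a higher median per kb than the G2/M genes. Of the G2/M genes, 12 of 16 had a log2 fold change below 0, none passed the test, and the median was near 0 without 1 PHD2-deltaT library. No cell cycle gene passed the test: 0 of 34 were called higher or lower at an adjusted p under 0.05 (limma with a mean-variance trend, Benjamini-Hochberg over 11534 genes), where 4.0% of all genes were called. At an unadjusted p under 0.05 there were 3 of 34, all G2/M genes and all lower, against 15.0% of all genes, and 6.48% counting lower values alone. The authors' deposited table likewise gave none of the 34 an FDR under 0.05, the smallest being 0.24 for Mki67.

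**Figure D1:**
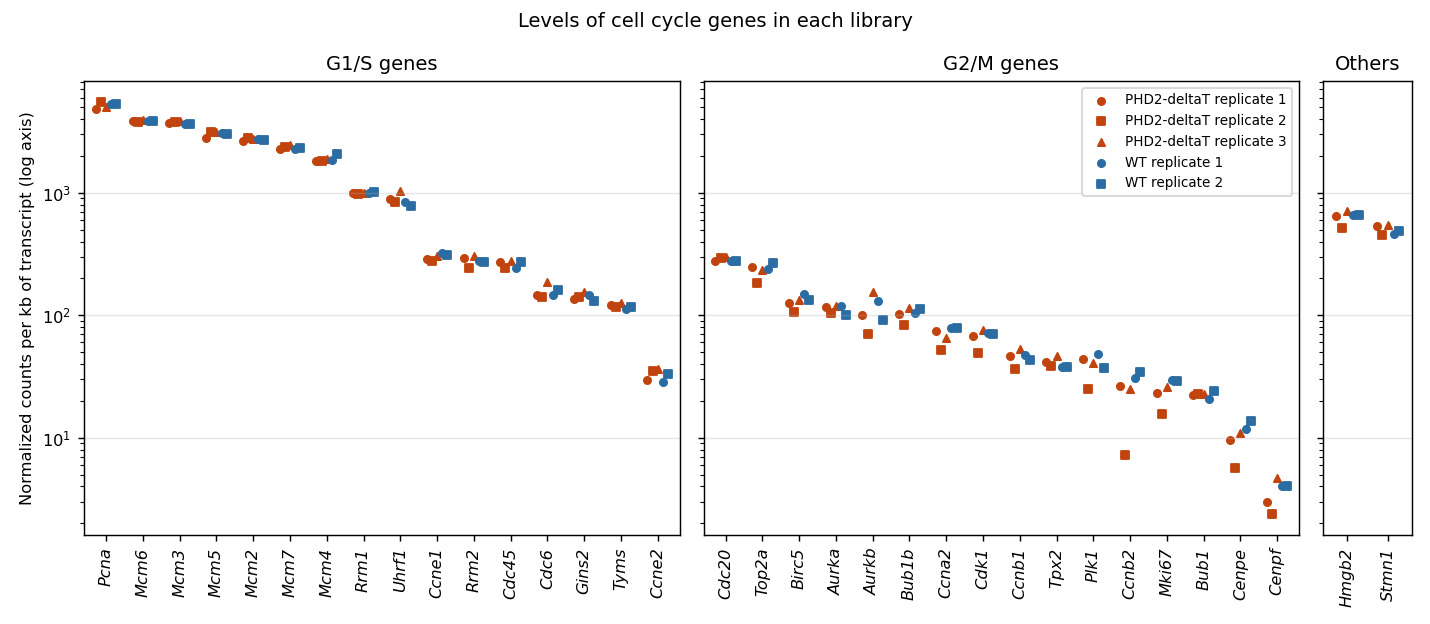
Normalized counts per kb of transcript (log axis) for the 34 genes in each of the 3 PHD2-deltaT libraries (orange) and 2 WT libraries (blue), 1 point per library, genes ordered by mean level. G1/S genes reach 5198 per kb (Pcna) and G2/M genes at most 285 per kb (Cdc20). The lowest point of Ccnb2 is PHD2-deltaT replicate 2.

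Per kb of transcript, the G1/S genes had a median of 939 normalized counts over all libraries and the G2/M genes a median of 56.3. The median G1/S gene stood at percentile 82.3 of the levels per kb of all tested genes, and the median G2/M gene at percentile 24.4. Summed per kb, G1/S genes exceeded G2/M genes 18.9-fold, 23.9-fold and 18.5-fold in the PHD2-deltaT libraries and 18.5-fold and 19.3-fold in the WT libraries. PHD2-deltaT replicate 2 had the highest ratio, and the other PHD2-deltaT libraries lay close to WT. Hmgb2, a chromatin protein, and Stmn1, a tubulin-binding protein, lay between the medians of the groups at 638 and 496 normalized counts per kb.

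Among the G1/S genes, the 6 subunits of the MCM2-7 helicase were read at 6505 to 11792 normalized counts in every library. Mcm6 had 11173, 11067 and 11381 normalized counts in PHD2-deltaT, against 11238 and 11339 in WT. Mcm3 had 11279, 11507 and 11792 in PHD2-deltaT, against 11081 and 11133 in WT. Mcm5 had 9501, 10579 and 10659 in PHD2-deltaT, against 10518 and 10166 in WT. The groups overlapped for Mcm5 and Mcm6 and did not for Mcm3, at 1.04-fold. Mcm2 averaged 9217 ± 304 normalized counts in PHD2-deltaT (SD, n = 3) and 9190 ± 140 in WT (SD, n = 2). Mcm7 averaged 7012 ± 225 in PHD2-deltaT and 6847 ± 135 in WT, and Mcm4 averaged 6594 ± 120 in PHD2-deltaT and 7064 ± 521 in WT. Log2 fold changes of the 6 ran from -0.10 (Mcm4) to 0.05 (Mcm3). Their 95% intervals together spanned 0.842-fold to 1.15-fold, all within the 1.5-fold used as a yardstick here.

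The replication fork was represented by Pcna, the sliding clamp, and by Cdc45 and Gins2, which complete the active helicase. The licensing step was represented by Cdc6, which helps to load MCM at origins. Pcna had 7288, 8435 and 7565 normalized counts in PHD2-deltaT, against 8118 and 8049 in WT, with PHD2-deltaT on both sides of WT. Cdc45 had 587, 522 and 590 in PHD2-deltaT, against 526 and 581 in WT. Gins2 had 534, 546 and 607 in PHD2-deltaT, against 573 and 506 in WT. Neither gene separated the genotypes. Gins2 lies 4.32 Mb from Egln1 on chromosome 8, and 67.3% of its exon bases are shared with Gse1 on the other strand, so its count is uncertain. Cdc6 averaged 404 ± 64.0 normalized counts in PHD2-deltaT (SD, n = 3) and 396 ± 26.6 in WT (SD, n = 2).

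The enzymes that supply DNA building blocks were equally flat. Rrm1, the large subunit of ribonucleotide reductase, had 3965, 3942 and 3979 normalized counts in PHD2-deltaT, against 4024 and 4033 in WT. Its groups did not overlap, yet the difference was 0.983-fold with a 95% interval on the log2 scale from -0.17 to 0.12. Rrm2, the small subunit made in S phase, had 649, 533 and 670 in PHD2-deltaT, against 605 and 592 in WT. Tyms, which makes thymidylate, averaged 384 ± 16.5 normalized counts in PHD2-deltaT and 363 ± 5.78 in WT.

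Cyclin E, which with CDK2 starts S phase, is encoded by Ccne1 and Ccne2, and these had log2 fold changes of opposite sign. Ccne1 had 576, 551 and 610 normalized counts in PHD2-deltaT, against 649 and 625 in WT, without overlap (log2 fold change -0.14, 95% interval -0.34 to 0.06, adjusted p = 0.566 in limma). Ccne2, the G1/S gene with the lowest level per kb, had 88.2, 105 and 110 in PHD2-deltaT, against 85.6 and 99.1 in WT (log2 fold change 0.13, 95% interval -0.26 to 0.52). Uhrf1, which keeps DNA methylation through replication, had the smallest p of the G1/S genes. It had 3195, 2997 and 3722 normalized counts in PHD2-deltaT, against 3036 and 2822 in WT (log2 fold change 0.17, adjusted p = 0.393 in limma). The value of PHD2-deltaT replicate 3 stood above the rest, and without that library the log2 fold change was 0.08.

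Over the 16 G1/S genes the median log2 fold change was 0.02, beside -0.01 over all tested genes, and it was -0.01 without PHD2-deltaT replicate 3. Of the 16, 6 were below 0 and 10 above. All 16 had a 95% interval inside 1.5-fold either way. The groups did not overlap for 4 of the 16 (Mcm3, Rrm1, Tyms and Ccne1), against 30.5% of all tested genes.

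**Figure D2:**
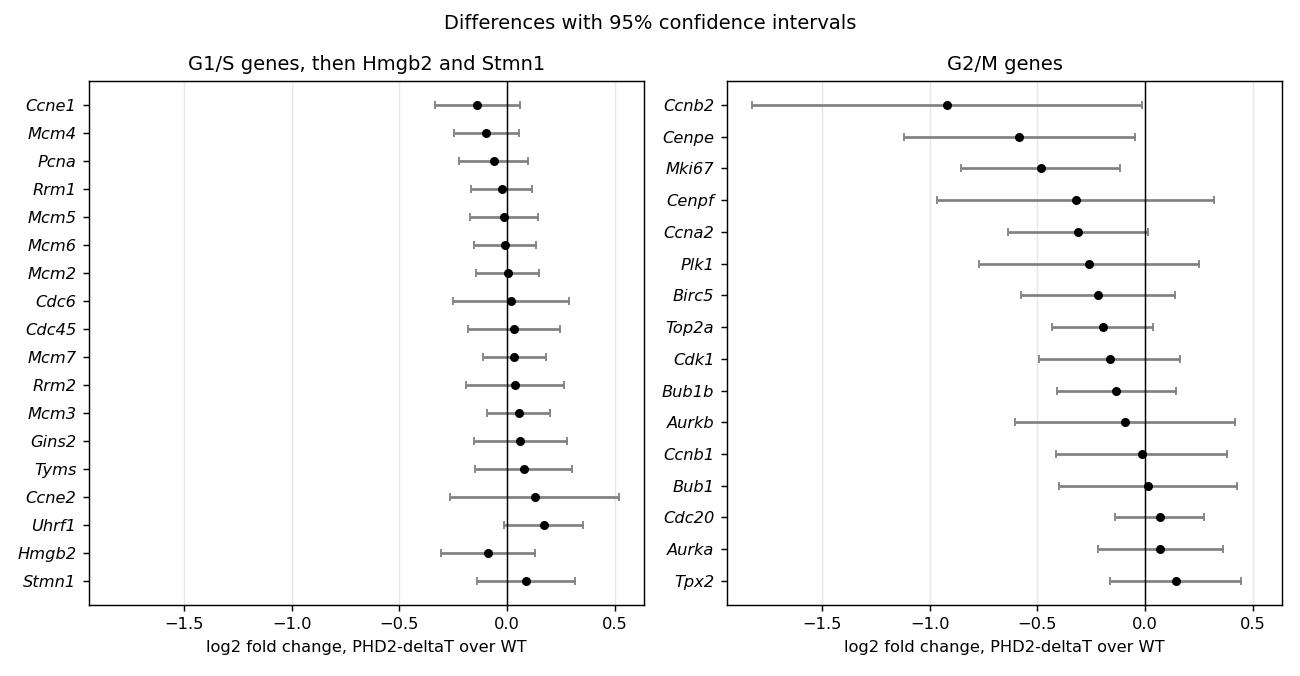
Log2 fold change of each gene, libraries labelled PHD2-deltaT over WT, with its 95% confidence interval from limma (3 against 2 libraries). The left panel holds the 16 G1/S genes, then Hmgb2 and Stmn1, and the right panel the 16 G2/M genes. Every interval in the left panel spans 0, and in the right panel those of Ccnb2, Cenpe and Mki67 do not.

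In the G2/M group, Mki67, the Ki-67 protein that coats mitotic chromosomes and is the usual marker of dividing cells, had the smallest p. It had 231, 156 and 260 normalized counts in PHD2-deltaT, against 300 and 291 in WT. Every PHD2-deltaT library was below both WT libraries, with replicate 2 lowest. The log2 fold change was -0.49 (95% interval -0.85 to -0.12, adjusted p = 0.160 in limma), and the interval reaches from near 0 to past 1.5-fold. Whether Mki67 was called depended on the library left out: the limma adjusted p was 0.0411 without PHD2-deltaT replicate 3, where the log2 fold change was -0.63, and 0.337 without PHD2-deltaT replicate 2, where the log2 fold change was -0.27. In bulk RNA, fewer dividing cells and less of these RNAs per cell cannot be told apart.

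Cenpe and Ccnb2 were the other genes with an unadjusted p under 0.05. Cenpe, the kinesin that carries chromosomes to the spindle equator, had 76.5, 44.6 and 86.9 normalized counts in PHD2-deltaT, against 93.6 and 108 in WT (log2 fold change -0.58, adjusted p = 0.275 in limma). Ccnb2, a B-type cyclin that activates CDK1, had 40.2, 11.1 and 37.9 in PHD2-deltaT, against 47.3 and 52.5 in WT (log2 fold change -0.92, adjusted p = 0.325). Replicate 2 was the lowest library for both, and the groups overlapped for neither. For Ccnb2 the inferred reads were 31, 8 and 24 in PHD2-deltaT, against 25 and 39 in WT, so its value rests on few reads. Without PHD2-deltaT replicate 2 the log2 fold changes were -0.30 for Cenpe and -0.34 for Ccnb2.

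**Figure D3:**
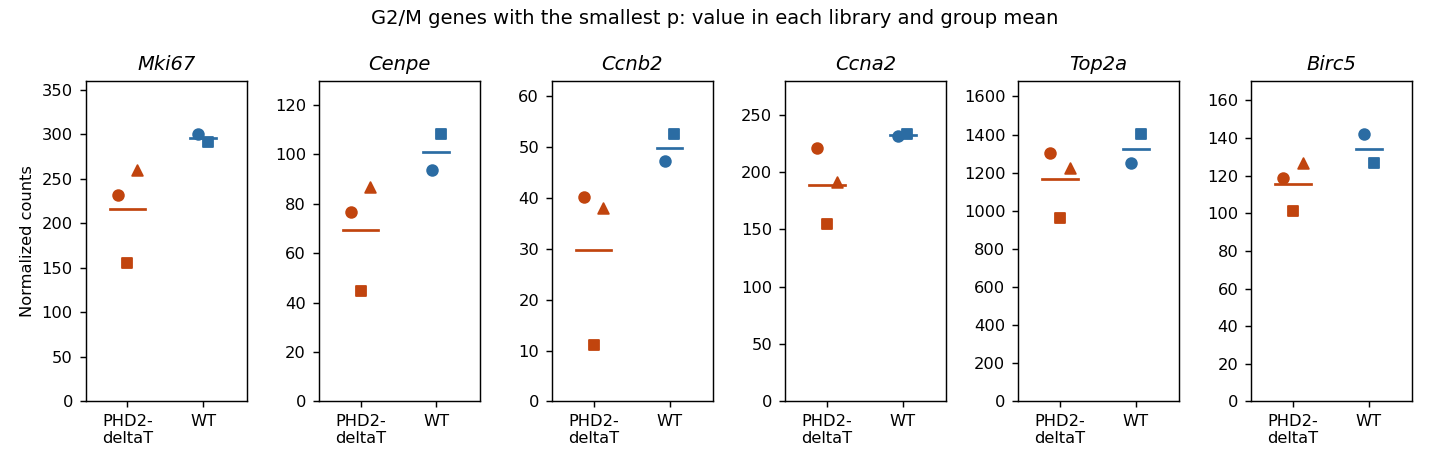
Normalized counts in each library (points) and group means (lines) for the 6 G2/M genes with the smallest p, PHD2-deltaT in orange (circle, square and triangle for replicates 1, 2 and 3) and WT in blue, each axis starting at 0. The square of PHD2-deltaT replicate 2 is the lowest point in all 6 panels.

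Of the other cyclins and kinases of entry into mitosis, Ccna2, Ccnb1, Cdk1 and Plk1 had log2 fold changes below 0. That of Ccnb1 was near 0 (-0.02), and that of Aurka, described below, was above 0 (0.07). None passed the test. Without PHD2-deltaT replicate 2, the log2 fold changes of Ccnb1 and Cdk1 were above 0. Ccna2, cyclin A, had 221, 155 and 192 normalized counts in PHD2-deltaT, against 232 and 233 in WT, without overlap (log2 fold change -0.31, adjusted p = 0.363 in limma). Ccnb1, the other B-type cyclin, averaged 113 ± 21.1 normalized counts in PHD2-deltaT and 113 ± 6.92 in WT. About 23.4% of the 50-base stretches of its transcripts also occur in other annotated transcripts. Cdk1, the kinase that both cyclins activate, had 298, 216 and 333 in PHD2-deltaT, against 315 and 307 in WT, where PHD2-deltaT lay on both sides of WT. Plk1, a kinase that triggers mitotic entry, averaged 79.9 ± 22.1 in PHD2-deltaT and 94.0 ± 18.0 in WT.

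Genes of chromosome structure and attachment followed. Top2a, the topoisomerase that untangles sister chromosomes, had 1304, 964 and 1227 normalized counts in PHD2-deltaT, against 1251 and 1401 in WT, with overlap. Cenpf, a kinetochore protein, had the lowest level per kb, at 33.3, 26.3 and 51.9 normalized counts in PHD2-deltaT, against 45.3 and 44.6 in WT. Birc5 (survivin), Aurkb and their chromosomal passenger complex correct attachments. Birc5 averaged 116 ± 13.0 in PHD2-deltaT and 134 ± 10.7 in WT. Aurkb had 195, 137 and 302 in PHD2-deltaT, against 257 and 178 in WT, the widest spread of the group after Ccnb2. Its highest PHD2-deltaT library was 2.20 times its lowest.

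Checkpoint, anaphase and spindle genes did not pass either. Bub1, a checkpoint kinase, averaged 77.5 ± 0.861 normalized counts in PHD2-deltaT and 76.9 ± 7.61 in WT. Bub1b, its relative BubR1, averaged 368 ± 58.4 in PHD2-deltaT and 401 ± 21.6 in WT. Cdc20, which activates the anaphase ligase, had 494, 530 and 539 in PHD2-deltaT, against 500 and 493 in WT. Tpx2, a spindle assembly factor, had 180, 167 and 205 in PHD2-deltaT, against 166 and 166 in WT, the only G2/M gene with all PHD2-deltaT values above WT (log2 fold change 0.14, adjusted p = 0.751 in limma). Aurka, the kinase that Tpx2 activates, averaged 218 ± 15.1 in PHD2-deltaT and 208 ± 24.9 in WT.

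Over the 16 G2/M genes the median log2 fold change was -0.18, beside -0.01 over all tested genes. It was below 0 for 12 of 16, against 51.8% of tested genes. The groups did not overlap for 5 of 16, against 30.5% of tested genes. For 4 of the 16 (Mki67, Cenpe, Ccnb2 and Ccna2) they did not overlap and PHD2-deltaT was lower, against 14.5% of tested genes. Without PHD2-deltaT replicate 2 the median was -0.01, with 9 of 16 below 0. Without PHD2-deltaT replicate 3 it was -0.29. The 95% interval lay inside 1.5-fold for 9 of the 16 genes. The median half-width was 0.36 on the log2 scale, against 0.17 for the G1/S genes and 0.25 for tested genes in the same range of mean values.

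The highest PHD2-deltaT library was a median of 1.44 times the lowest for G2/M genes and 1.11 times for G1/S genes, beside 1.10 and 1.03 times between the WT libraries. Such a ratio tends to be larger over 3 libraries than over 2, so by it the genotypes are not directly comparable. PHD2-deltaT replicate 2 was the lowest of the 5 libraries for 12 of 16 G2/M genes and 6 of 16 G1/S genes, against 20.5% of all tested genes and 23.7% of tested genes in the range of levels of the G2/M genes. Its G2/M values had a median of 73.9% of the mean of the other 2 PHD2-deltaT libraries, and its G1/S values a median of 98.5%. The 16 G2/M genes summed to 4081, 3239 and 4311 normalized counts in PHD2-deltaT, against 4256 and 4280 in WT. The 16 G1/S genes summed to 71782, 74486 and 75871 in PHD2-deltaT, against 73926 and 74194 in WT. By these sums, replicate 2 was the lowest library for the G2/M genes and the second highest for the G1/S genes, whose sum is mostly that of the Mcm genes and Pcna. PHD2-deltaT replicate 3 was highest for 11 of the 16 G1/S genes, against 20.3% of all tested genes. Hmgb2 and Stmn1 were also lowest in replicate 2, with 1694, 1368 and 1856 normalized counts of Hmgb2 in PHD2-deltaT, against 1736 and 1728 in WT. This order of libraries was noticed in these data and was not tested.

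**Figure D4:**
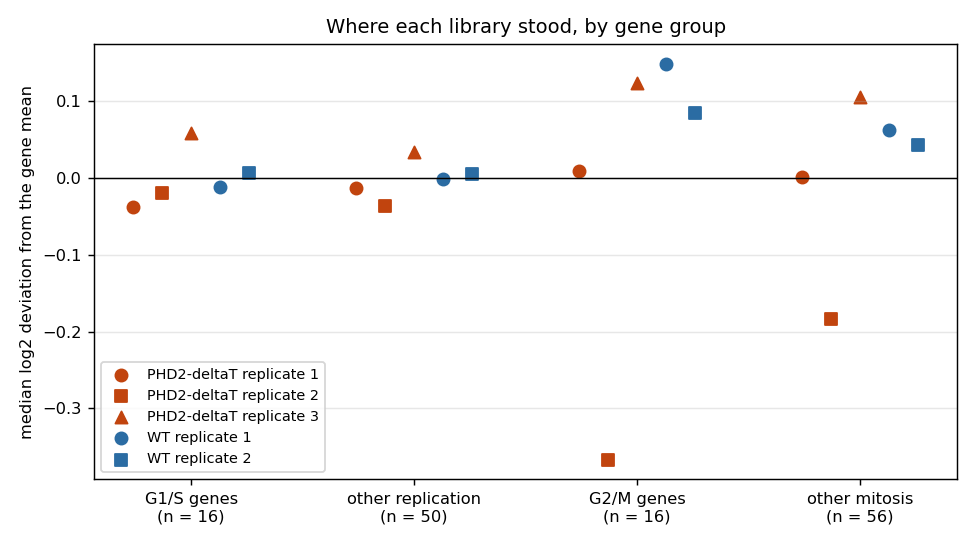
Median over genes of the log2 deviation of a library from the gene's mean over all 5 libraries, by gene group (PHD2-deltaT orange, WT blue; circle, square and triangle for replicates 1, 2 and 3). PHD2-deltaT replicate 2 stands at -0.37 for the G2/M genes and -0.18 for 56 other mitosis genes, and at -0.02 for the G1/S genes.

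Genes outside the 34 were taken from lists of the same pathways. Among 56 other mitosis genes, 0 were called in either direction by limma, 3 had an unadjusted p under 0.05, and log2 fold changes had a median of -0.11. Shares over all tested genes were 4.0% called and 15.0% at an unadjusted p under 0.05. Replicate 2 of PHD2-deltaT was the lowest library for 33 of the 56, against 20.5% of all tested genes, and without it the median was -0.00. The smallest p belonged to Kif11, the spindle motor Eg5, with 166, 114 and 172 normalized counts in PHD2-deltaT, against 235 and 193 in WT (log2 fold change -0.52, adjusted p = 0.141). Ckap5 (-0.22), Incenp (-0.23) and Foxm1 (-0.31), the factor that drives G2/M genes, followed on the log2 scale. Among 50 other replication genes, 0 were called by limma, 4 had an unadjusted p under 0.05, and the median was 0.01, beside the same shares of 4.0% and 15.0%. PHD2-deltaT replicate 2 was lowest for 17 of the 50, again against 20.5%. Pola1 (-0.25), Wdhd1 (-0.24), Fen1 (0.48) and Pole (-0.19) had the smallest p, and 84.2% of the exon bases of Fen1 are shared with other genes.

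Markers that other lymphocytes or contaminants carry were summed for each library. NK markers summed to 4884, 4760 and 5551 normalized counts in PHD2-deltaT, against 3682 and 3383 in WT over the 3 of 5 that were tested, and Eomes, which CD8 T cells also express, made up most of it and was called higher (log2 fold change 0.51). Klre1 and Klrb1c were highest in PHD2-deltaT replicate 2, at 101 and 21.3 normalized counts, and neither was called. Eomes went the other way, with 4802, 4637 and 5471 normalized counts in PHD2-deltaT, where replicate 2 was the lowest. B cell markers (5 of 8 tested) summed to 5756 to 6554 in PHD2-deltaT and 6006 to 6535 in WT, most of it Ighm, the 1 member with a log2 fold change below 0 (-0.10). The other 4 had every PHD2-deltaT value above WT, where 30.5% of all tested genes did not overlap in either direction. H2-Ab1 (85.1 to 155 normalized counts in PHD2-deltaT, against 10.9 and 21.1 in WT, log2 fold change 2.87) and Cd74 (0.61) were called higher, against 2.97% of all tested genes. H2-Aa was low, with 23.5, 23.3 and 27.0 normalized counts in PHD2-deltaT, against 21.1 and 19.8 in WT. Myeloid markers (2 of 8) summed to 1128 to 1293 in PHD2-deltaT and 1066 to 1269 in WT. CD4 T cell markers (3 of 4) summed to 10924 to 11975 in PHD2-deltaT and 9801 to 10027 in WT, most of it Il2ra, which activated CD8 T cells also express, and none was called. The 1 of 5 stromal markers tested, Pecam1, had 1859 to 2376 in PHD2-deltaT and 1936 to 1958 in WT, and none of 6 erythroid markers was tested. CD8 T cell markers (6 of 6) summed to 53623 to 54915 in PHD2-deltaT and 52928 to 56538 in WT. Among them only Cd247 was called, as higher (log2 fold change 0.29, adjusted p = 0.0336 in limma), where 2.97% of all tested genes were. About 60.3% of its exon bases are shared with other genes, and 0 of these markers passed without the mean-variance trend. The part of other cells in the values of the G2/M genes was not tested.

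Upstream of both groups, the G1 cyclins, their kinases and growth regulators were not called. Of 18 tested genes 0 passed in limma, 4 had an unadjusted p under 0.05, and the median log2 fold change was 0.00, where 4.0% and 15.0% of all tested genes met those thresholds. Myc, the transcription factor that drives growth of activated lymphocytes, had 15125, 16812 and 15659 normalized counts in PHD2-deltaT, against 14160 and 13853 in WT (log2 fold change 0.18, adjusted p = 0.244). Ccnd3, a D-type cyclin, had 3479, 3623 and 3469 in PHD2-deltaT, against 3126 and 2868 in WT (log2 fold change 0.23, adjusted p = 0.0844 in limma). Ccnd2, another D-type cyclin, had 23738, 27260 and 23918 in PHD2-deltaT, against 25999 and 25252 in WT (log2 fold change -0.04). The groups did not overlap for Myc and Ccnd3. In the whole list they did not overlap for 5 of the 18 genes, against 30.5% of all tested genes. Cks1b (0.24) and Tfdp2 (-0.26) were the other genes with an unadjusted p under 0.05, with log2 fold changes in parentheses.

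The brakes on the cell cycle, a list drawn up with earlier results of these data known, included called genes. Of 23 tested, 3 were higher in PHD2-deltaT and 0 were lower, against 2.97% and 1.02% of all tested genes, and the median log2 fold change was 0.10. Gadd45g, a growth arrest and stress-signalling gene, had 523, 555 and 754 normalized counts in PHD2-deltaT, against 276 and 270 in WT (log2 fold change 1.14 ± 0.13 SE, adjusted p = 6.17e-05 in limma). Its relative Gadd45b had 672, 805 and 806 in PHD2-deltaT, against 462 and 461 in WT (0.71 ± 0.10 SE, adjusted p = 0.000365). Ccng2, the unusual cyclin G2 tied to arrest, had 1265, 826 and 1075 in PHD2-deltaT, against 666 and 750 in WT (0.56 ± 0.13 SE, adjusted p = 0.0241 in limma). Of the 23 brakes, 18 had a log2 fold change above 0 and 5 below. Relatives of the called genes were among those below 0: Ccng1 (-0.22) and Gadd45a (-0.39, at 13.2 to 26.2 normalized counts). Neither was called. The 3 called genes had every PHD2-deltaT library above both WT libraries. They were picked by the test on these same values, so this adds no support. The groups did not overlap for 11 of the 23 brakes, 2 of them lower. Shares over all tested genes were 30.5%, and 14.5% counting lower values alone. The limma call of Ccng2 was lost under robust eBayes (adjusted p = 0.111) and when WT replicate 1 (0.179) or WT replicate 2 (0.0527) was left out, and without the mean-variance trend 0 of the 3 passed. The number of called brakes was 5 without PHD2-deltaT replicate 2. In that fit the genes called higher over the whole table also rose, from 343 to 362.

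**Figure D5:**
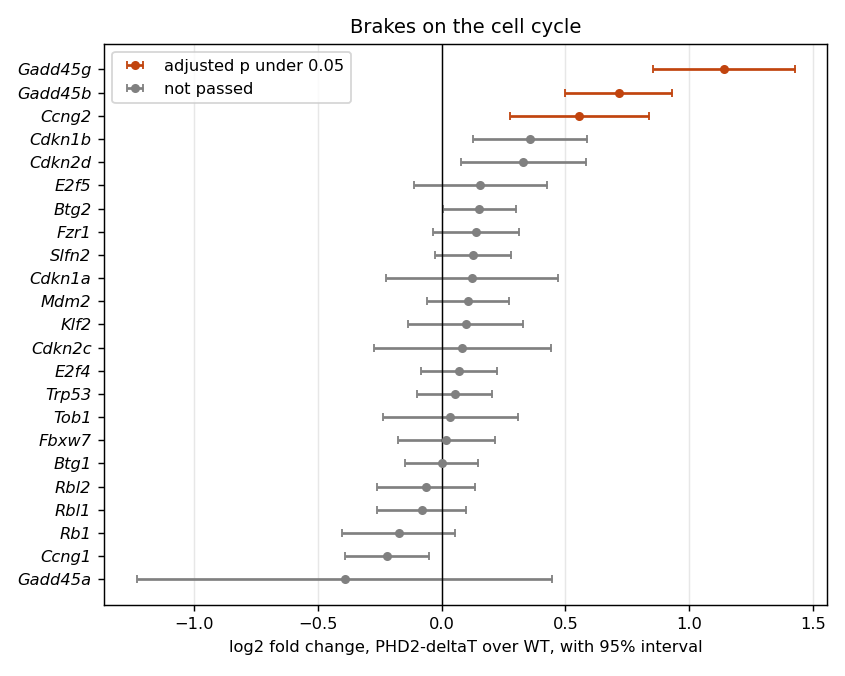
Log2 fold change, libraries labelled PHD2-deltaT over WT, with 95% confidence interval from limma for 23 brakes on the cell cycle, largest at the top. Gadd45g, Gadd45b and Ccng2 (orange) passed an adjusted p of 0.05, and the other 20 (grey) did not.

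The CDK inhibitors themselves did not pass. Cdkn1b, which encodes p27, had 1695, 1408 and 1900 normalized counts in PHD2-deltaT, against 1194 and 1399 in WT (log2 fold change 0.36, adjusted p = 0.0851 in limma). Without PHD2-deltaT replicate 2 its log2 fold change was 0.47 and it was called (adjusted p = 0.00688). Cdkn1a, which encodes p21, averaged 301 ± 51.5 normalized counts in PHD2-deltaT and 278 ± 72.3 in WT. Cdkn1c, Cdkn2a and Cdkn2b were not analysed here.

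Genes that repair DNA during replication held 2 decreases among 24 tested, and 0 increases, where 1.02% of all tested genes were called lower and 2.97% higher. The median log2 fold change was -0.11. It depended on the WT library left out, at -0.04 without WT replicate 2 and -0.21 without WT replicate 1. Fanca, of the Fanconi anaemia complex, had 63.7, 45.6 and 60.9 normalized counts in PHD2-deltaT, against 134 and 146 in WT (log2 fold change -1.30 ± 0.21 SE, adjusted p = 0.00102 in limma). The gap between Fanca and Egln1 is 1.59 Mb on chromosome 8, and 10.5% of the exon bases of Fanca are shared with Zfp276. Atm, the kinase that senses DNA breaks, had 1463, 1940 and 2013 in PHD2-deltaT, against 2206 and 2930 in WT (-0.51 ± 0.13 SE, adjusted p = 0.0314). The limma call of Atm was lost without WT replicate 2 (log2 fold change -0.30, adjusted p = 0.474), under quantile scaling (0.0501), under robust eBayes (0.274) and without the trend (0.367). Brca2 (-0.54) and Fancm (-0.39) had the next smallest p and did not pass, although Brca2 was called without PHD2-deltaT replicate 3 (adjusted p = 0.031).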

How the data were processed

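RNA was sequenced from sorted CD8 T cells (PHD2-deltaT, 3 libraries, and WT, 2). The submitters' processing notes name mm10, HTSeq 0.9.1, STAR 2.5.3 and Trimmomatic 0.36. The scaling tool, the authors' test and whether counting used strand or kept reads with several positions were not stated in the sources used. The authors deposited a normalized signal for each gene and library (normalized counts per the file headers), log2 fold changes (WT over PHD2-deltaT, read from the library columns) and adjusted p-values headed FDR.

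Every value was a whole multiple of 1 step per library (tolerance 1e-06). Gaps between the whole numbers fitted read counts scaled by 1 factor a library and rounded up. The factors (1.30, 1.35 and 1.55 for PHD2-deltaT, then 1.85 and 1.36 for WT) accounted for at least 99.8% of whole numbers up to 1000, against 54.1% to 77.0% by chance, and gave the inferred reads. Dates had replaced 17 gene names, which were restored from gene IDs. Genes with at least 10 normalized counts in at least 2 libraries were kept (11534 of 11564, all 34 cell cycle genes included). Log2(value + 1) was modelled on genotype alone by limma 3.58.1 in R 4.3.3, with a mean-variance trend (3 residual and 12.8 prior degrees of freedom). Fold changes use that scale and so understate low genes. All tests are two-sided, adjusted by Benjamini-Hochberg over all genes, and intervals are at 95%. Lengths (principal transcript), positions and shared exon bases came from GENCODE M21 on GRCm38.

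The members and lists were chosen with earlier results of these data known. The text names all 34 members, up to 4 genes of each other list by smallest p, called brakes and G1 genes, and Egln1. Cdkn1a, Ccnd2, Ccng1, Gadd45a, Klre1, Klrb1c, Pecam1, Eomes, Cd74, H2-Ab1, H2-Aa, Ighm, Il2ra, Cd247 and Cd8a were named after their values were seen. Replicate numbers follow the order of the labels. Figures were drawn with matplotlib 3.10.9 and tables made with pandas 2.3.3 in Python 3.11.15.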

Additional observations from a re-analysis of the deposited data

How the results depend on the processing

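The count of 0 called cell cycle genes held under 12 of 13 alternatives (pseudocounts 0.5 and 5, no filter, a mean of at least 50, quantile or TMM scaling, robust eBayes, no mean-variance trend, and each library left out in turn). Across the fits without 1 library it ran from 0 to 1, the 1 being Mki67 without PHD2-deltaT replicate 3. The count over all genes was 461 and ran from 244 (without WT replicate 2) to 523 (without PHD2-deltaT replicate 2) in those fits, and was 96 without the mean-variance trend. The G1/S median ran from -0.01 to 0.05 and the G2/M median from -0.29 to -0.01, the value nearest 0 being that without PHD2-deltaT replicate 2. TMM and quantile scaling left every sign of the 34 genes unchanged. In the fits without 1 library, 12 of the 34 turned sign, none over 0.16 in size. No paired analysis was possible because the labels give no replicate numbers. The filter on a mean of at least 50 tested 32 of the 34. The fewest inferred reads behind a value of the 34 genes were 8 (Ccnb2), and the part of depth in the spread was not tested.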
